A study of Oryza sativa Japonica Group with 12 samples.

Results

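Alpha-expansins are cell wall proteins that let the walls of growing plant cells yield at acidic pH, without cutting the wall polymers. Each member of the family is expressed in its own set of organs and stages, so the pool of alpha-expansin transcripts in a seedling is a mixture of genes. The levels of 7 rice alpha-expansin genes, EXPA1, EXPA2, EXPA4, EXPA5, EXPA7, EXPA8 and EXPA10, were followed across 12 RNA sequencing libraries. They were taken by their locus numbers from a table of 29358 loci, and all 7 passed the filter on low values that left 22371 loci for testing. The reference gene table names 29 rice genes EXPA, so the 7 are a part of the family.

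Whole seedlings of rice (Oryza sativa, Japonica group) were sampled at an age of 5 days in 4 groups of 3 libraries: raf-b2/3 with mannitol, raf-b2/3 without mannitol (control), WT with mannitol and WT without mannitol (control). Mannitol was given at 800 mM for 6 hours. The labels do not say at what hour the controls were sampled, so mannitol and any change over those hours cannot be told apart in a mannitol response. Mannitol is a sugar alcohol that draws water out of plant cells and so imposes osmotic stress. The WT is labelled WT/NIP. The line raf-b2/3 carries a defect in B2 and B3 RAF protein kinases, which act in the signalling of osmotic stress in plants, and the labels call it a knockdown in one place and a mutant in another. The labels do not name the loci of the affected kinases or the alleles, so the genotype of a library was not checked against its own transcripts. Nor do they say if replicate libraries were made from different batches of seedlings, so each p-value is measured against a spread that may be technical.

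Levels are given as FPKM, fragments scaled to the gene's length and to the fragments of the library, so levels may be compared between genes. Between 37534836 and 39792489 fragments, as recovered from the FPKM, stood behind the libraries. Of 7 root markers, 6 were in the table and none was at 0 in any library, and the same held for 5 of 5 markers of green shoot. Transcripts of both lists were thus detected in every library, which does not by itself show how much of either organ it held. The library WT control 2 stood apart: its 6 root markers summed to 116 FPKM, against 454 FPKM in WT control 1 and 504 FPKM in WT control 3, and it was the lowest of the 3 WT controls for 6 of 6 root markers. It was also the lowest WT control for 3 of the 7 alpha-expansins (EXPA1, EXPA2 and EXPA8) and for 23 of 32 other expansins and cellulose synthases. Since 1 of 3 controls must be lowest for any gene, 3 of 7 does not by itself set this library apart. The share over all tested loci was not counted, and for EXPA2 it was only slightly lower, at 48.1 against 50.3 and 53.4 FPKM. Values without this library are given beside the results that it moves most.

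In unstressed seedlings EXPA2 and EXPA4 made up most of the summed FPKM of the 7 alpha-expansins. Under mannitol both fell while EXPA5 and EXPA7 rose. The falls of EXPA2 and EXPA4 left them at higher levels in raf-b2/3 than in WT under mannitol, whereas EXPA5 and EXPA7 reached overlapping levels in both genotypes. EXPA10 and EXPA1 moved little, and EXPA8, the least abundant, rose with mannitol in WT by an amount that depends on WT control 2. In RNA of whole seedlings, fewer cells of a type and less RNA per cell cannot be told apart.

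**Figure D1:**
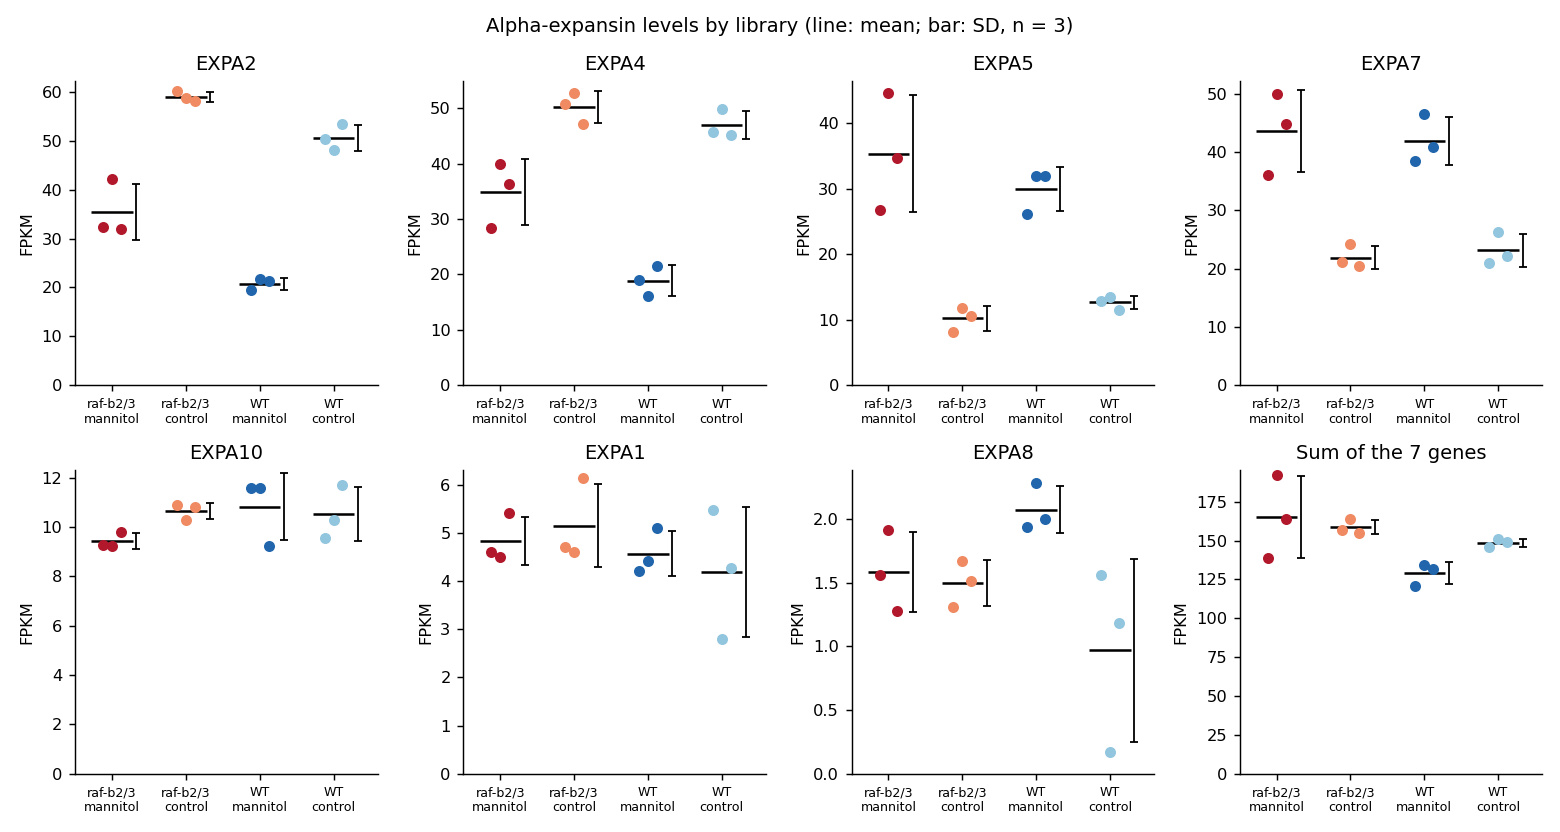
FPKM of each of the 7 alpha-expansins and of their sum (y axis, 1 panel each, with its own scale from 0) in the 12 libraries, grouped on the x axis as raf-b2/3 mannitol, raf-b2/3 control, WT mannitol and WT control. Points are libraries, horizontal lines are group means and the vertical bars beside them are SD (n = 3). EXPA2 and EXPA4 stand lowest in the WT mannitol libraries, at 19.4 to 21.7 and 16.0 to 21.6 FPKM, while EXPA5 and EXPA7 stand high in the mannitol libraries of both genotypes.

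EXPA2 (LOC_Os01g60770) was the most abundant alpha-expansin of the 7 in both unstressed groups. In raf-b2/3 it had 32.3, 42.1 and 32.0 FPKM with mannitol, against 60.2, 58.7 and 58.1 FPKM in the controls. In WT it had 19.4, 21.7 and 21.2 FPKM with mannitol, against 50.3, 48.1 and 53.4 FPKM in the controls. All mannitol libraries lay below all control libraries of their genotype, and all 3 raf-b2/3 mannitol libraries lay above all 3 WT mannitol libraries. The mean with mannitol was 0.601 of the control mean in raf-b2/3 and 0.411 of it in WT. On the scale of log2(FPKM + 1), which understates changes of low genes, EXPA2 fell by 0.73 in raf-b2/3 (SE 0.09, adjusted p = 2.9e-05, limma) and by 1.24 in WT (SE 0.09, adjusted p = 3.0e-07, limma). Here and below the test is limma over all 12 libraries with 1 mean per group, two-sided, with p-values adjusted after Benjamini-Hochberg over all 22371 loci and a call at an adjusted p under 0.05.

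EXPA4 (LOC_Os05g39990), whose transcript is known to accumulate in elongating rice tissue under gibberellin and submergence, followed the course of EXPA2. Its FPKM was 28.4, 40.0 and 36.3 in raf-b2/3 with mannitol and 50.7, 52.8 and 47.1 in the raf-b2/3 controls. In WT it was 19.0, 16.0 and 21.6 with mannitol and 45.8, 49.9 and 45.2 in the controls. The groups with and without mannitol did not overlap in either genotype, and the raf-b2/3 and WT libraries with mannitol did not overlap either. EXPA4 fell by 0.52 on the log2 scale in raf-b2/3 (SE 0.12, adjusted p = 0.0026) and by 1.28 in WT (SE 0.12, adjusted p = 2.2e-06), both in limma. The ratio of EXPA2 to EXPA4 in FPKM was 1.02 ± 0.131 in raf-b2/3 mannitol, 1.18 ± 0.0614 in raf-b2/3 control, 1.12 ± 0.207 in WT mannitol and 1.08 ± 0.109 in WT control (SD, n = 3 each).

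EXPA5 (LOC_Os02g51040) moved the other way and, on the scale of log2(FPKM + 1), had the largest rise of the 7 genes in each genotype. It had 26.7, 44.6 and 34.7 FPKM in raf-b2/3 with mannitol, against 8.12, 11.8 and 10.6 FPKM in the raf-b2/3 controls. It had 26.1, 31.9 and 31.9 FPKM in WT with mannitol, against 12.9, 13.5 and 11.5 FPKM in the WT controls. Mannitol and control libraries did not overlap in either genotype. With mannitol the genotypes overlapped, at 26.7 to 44.6 FPKM in raf-b2/3 and 26.1 to 31.9 FPKM in WT. The mean with mannitol was 3.48 times the control mean in raf-b2/3 (log2 change 1.69, SE 0.17, limma adjusted p = 3.9e-06) and 2.38 times in WT (log2 change 1.18, SE 0.17, limma adjusted p = 5.6e-05).

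EXPA7 (LOC_Os03g60720), a gene tied in rice to tolerance of salt, rose as well and became the most abundant of the 7 under mannitol. Its FPKM was 36.0, 50.0 and 44.8 in raf-b2/3 with mannitol and 21.1, 24.2 and 20.4 in the raf-b2/3 controls. In WT it was 38.5, 46.5 and 40.9 with mannitol and 20.9, 26.3 and 22.2 in the controls. Each mannitol group lay wholly above its control group, and the raf-b2/3 and WT libraries overlapped both with and without mannitol. The log2 change was 0.95 in raf-b2/3 (SE 0.12, limma adjusted p = 3.0e-05) and 0.83 in WT (SE 0.12, limma adjusted p = 7.7e-05), with ratios of means of 1.99 and 1.81.

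EXPA10 (LOC_Os04g49410), known in rice from the root tip and its response to aluminium, stayed within a narrow range over all 12 libraries. It had 9.29, 9.23 and 9.81 FPKM in raf-b2/3 with mannitol, against 10.9, 10.3 and 10.8 FPKM in the raf-b2/3 controls. It had 11.6, 11.6 and 9.25 FPKM in WT with mannitol, against 9.56, 10.3 and 11.7 FPKM in the WT controls. The raf-b2/3 mannitol libraries lay just below the raf-b2/3 controls without overlap, and the WT groups overlapped. The log2 change of EXPA10 was -0.16 in raf-b2/3 (95% interval -0.36 to 0.04, limma adjusted p = 0.14) and 0.04 in WT (-0.17 to 0.24, limma adjusted p = 0.76). Both lean on the scaling: with median-of-ratios or quantile scaling the raf-b2/3 change of EXPA10 was -0.23 or -0.26 and passed the limma test (adjusted p = 0.048 or 0.03), and the WT change turned to -0.06 or -0.1 without passing.

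EXPA1 (LOC_Os04g15840) was low in every library and did not pass the test in any comparison. It had 4.59, 4.49 and 5.4 FPKM in raf-b2/3 with mannitol and 4.7, 4.61 and 6.14 FPKM in the raf-b2/3 controls. It had 4.2, 4.41 and 5.09 FPKM in WT with mannitol and 5.48, 2.8 and 4.27 FPKM in the WT controls. All groups overlapped, and the lowest value, 2.8 FPKM, was that of WT control 2. The log2 change of EXPA1 was -0.07 in raf-b2/3 (95% interval -0.44 to 0.29, limma adjusted p = 0.73) and 0.13 in WT (-0.23 to 0.5, limma adjusted p = 0.51), and without WT control 2 the WT value turned to -0.07.

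EXPA8 (LOC_Os01g14650), whose overexpression alters root architecture in rice, was the least abundant of the 7 in every group. It had 1.56, 1.91 and 1.28 FPKM in raf-b2/3 with mannitol, against 1.31, 1.67 and 1.51 FPKM in the raf-b2/3 controls, and these groups overlapped. It had 1.94, 2.28 and 2.0 FPKM in WT with mannitol, against 1.56, 0.17 and 1.18 FPKM in the WT controls. The value of WT control 2 rests on 7 fragments, with an exact 95% Poisson interval of 0.0682 to 0.349 FPKM, against 1.19 to 2.0 FPKM in WT control 1 and 0.871 to 1.57 FPKM in WT control 3; such intervals cover counting error only. The WT mannitol libraries lay above all WT controls. In WT EXPA8 passed the test (log2 change 0.72, SE 0.23, limma adjusted p = 0.015). Without WT control 2 the change was 0.38 (limma adjusted p = 0.028), and with a smaller pseudocount of 0.1 or limma-voom on the fragments it was 1.39 or 1.59. In raf-b2/3 the log2 change of EXPA8 was 0.05 (95% interval -0.45 to 0.54, limma adjusted p = 0.87). The root markers of WT control 2 were low together with its EXPA8, and their part in the WT value was not tested. EXPA8 lies next to EXPA9 in the reference gene order, and how reads shared by similar genes were counted is not given in the sources used here.

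Counted over the 7 genes, the WT response held 3 that rose (EXPA5, EXPA7, EXPA8) and 2 that fell (EXPA2, EXPA4). This compares with 37.7% of all tested loci that rose and 25.5% that fell in WT. The raf-b2/3 response held 2 that rose (EXPA5, EXPA7) and 2 that fell (EXPA2, EXPA4), against 35.6% and 26.7% of all tested loci. In either direction 62.2% of all loci passed in raf-b2/3 and 63.3% in WT, so the 4 and 5 alpha-expansins called are close to the background, and the number of calls is not a result about these genes. The mannitol and control libraries did not overlap for 5 of 7 genes in raf-b2/3, against 66.5% of all tested loci, and for 5 of 7 in WT, against 69.1%. The median log2 change of the 7 was -0.07 in raf-b2/3 and 0.13 in WT, beside 0.07 in raf-b2/3 and 0.09 in WT over all tested loci. The authors' deposited table gives the same signs for EXPA2, EXPA4, EXPA5 and EXPA7, with log2 fold changes of -0.81, -0.6, 1.73 and 0.92 in raf-b2/3 and of -1.39, -1.42, 1.14 and 0.75 in WT. For EXPA8 in WT the authors' deposited table gives a log2 fold change of 0.99 with a p-value of 0.058, and for EXPA10 in raf-b2/3 it gives -0.25 with a p-value of 0.021. No source used here says if those p-values were adjusted.

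**Figure D2:**
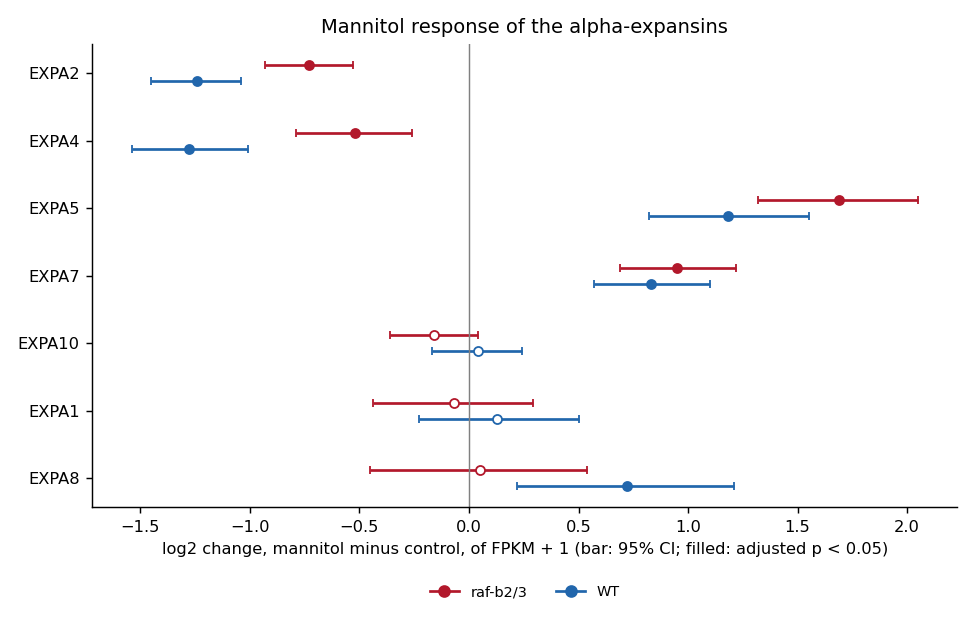
Log2 change with mannitol of the 7 alpha-expansins (x axis, mannitol minus control of log2(FPKM + 1)) in raf-b2/3 (upper point of each pair) and WT (lower point), with 95% intervals from limma over 12 libraries; filled points have an adjusted p under 0.05. EXPA2 and EXPA4 lie left of 0 and EXPA5 and EXPA7 right of it in both genotypes, and for EXPA2 and EXPA4 the raf-b2/3 point lies nearer to 0.

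Because genes went both ways, the make-up of the summed FPKM of the 7 genes changed with mannitol in both genotypes. Their sum was lower with mannitol in WT, and in raf-b2/3 it overlapped the controls. Other alpha-expansins are not in this sum, and neither its size nor its make-up was tested. The 7 genes summed to 165 ± 26.8 FPKM in raf-b2/3 mannitol and 159 ± 4.88 in raf-b2/3 control, and to 129 ± 7.28 in WT mannitol and 149 ± 2.28 in WT control (SD, n = 3 each). The raf-b2/3 sums with mannitol, 139 to 192 FPKM, spanned those of the controls, 155 to 164 FPKM, while the WT sums with mannitol, 121 to 134 FPKM, lay below those of the WT controls, 146 to 151 FPKM. EXPA2 held 21.5% ± 1.92 of the sum in raf-b2/3 mannitol and 37.2% ± 1.32 in raf-b2/3 control, and 16.1% ± 0.0611 in WT mannitol and 34.0% ± 1.96 in WT control (SD, n = 3 each). EXPA4 held 21.1% and 31.6% in raf-b2/3 with and without mannitol and 14.7% and 31.5% in WT with and without it. The shares of both genes were lower with mannitol in every library of either genotype, and lowest in WT mannitol.

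EXPA5 held 21.2% ± 1.97 of the sum in raf-b2/3 mannitol and 6.4% ± 1.08 in raf-b2/3 control, and 23.2% ± 1.39 in WT mannitol and 8.47% ± 0.687 in WT control. EXPA7 held 26.4% ± 0.753 and 13.8% ± 0.853 in raf-b2/3 with and without mannitol and 32.5% ± 1.86 and 15.5% ± 1.68 in WT with and without it (SD, n = 3 each). EXPA10, EXPA1 and EXPA8 held at most 8.4%, 3.54% and 1.61% of the sum as group means. The ratio of EXPA5 to EXPA2 shows the exchange within each library: it was 0.827 to 1.08 in raf-b2/3 mannitol and 0.135 to 0.201 in raf-b2/3 control, and 1.34 to 1.51 in WT mannitol and 0.215 to 0.28 in WT control. The ratio of EXPA7 to EXPA2 was 1.24 ± 0.149 and 0.372 ± 0.036 in raf-b2/3 with and without mannitol and 2.02 ± 0.109 and 0.459 ± 0.0761 in WT with and without it (SD, n = 3 each). A ratio within a library does not depend on how libraries were scaled to each other.

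**Figure D3:**
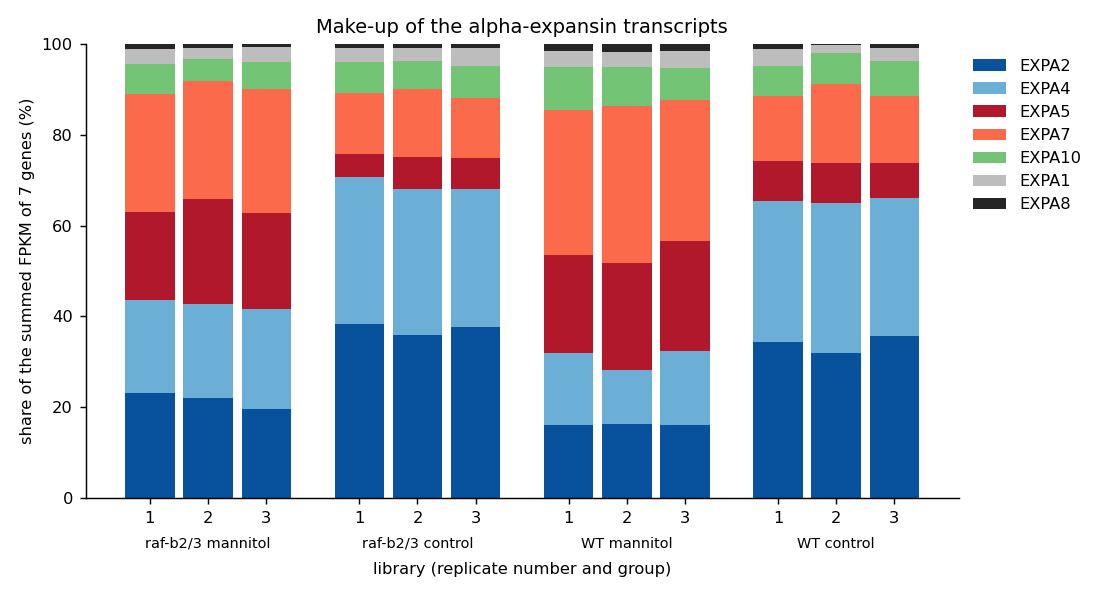
Share of each alpha-expansin in the summed FPKM of the 7 genes (y axis, percent), 1 bar per library, in the order raf-b2/3 mannitol, raf-b2/3 control, WT mannitol and WT control. EXPA2 and EXPA4 (blue) shrink and EXPA5 and EXPA7 (red) grow with mannitol in both genotypes, and the blue part is smallest in the WT mannitol bars.

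The order of the levels changed with it. In the raf-b2/3 mannitol libraries EXPA7 had the highest mean, 43.6 FPKM, ahead of EXPA2, EXPA5 and EXPA4 at 35.5, 35.3 and 34.9 FPKM, and neighbours among these 4 overlapped between libraries. In the raf-b2/3 controls EXPA2 led with 59.0 FPKM, ahead of EXPA4 at 50.2 and EXPA7 at 21.9 FPKM without overlap, followed by EXPA10 and EXPA5 at 10.7 and 10.2 FPKM, which overlapped. In WT mannitol the order was EXPA7 at 42.0, EXPA5 at 30.0, EXPA2 at 20.8 and EXPA4 at 18.9 FPKM, where only EXPA2 and EXPA4 overlapped. In the WT controls EXPA2 and EXPA4 led with overlapping levels of 50.6 and 47.0 FPKM, ahead of EXPA7 at 23.1, EXPA5 at 12.6 and EXPA10 at 10.5 FPKM, of which EXPA5 and EXPA10 overlapped. EXPA1 and EXPA8 came last in all 4 groups, each below its neighbour in every library of the group.

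The series was made to see how the B2 and B3 kinases bear on expression under osmotic stress. With mannitol, raf-b2/3 exceeded WT in 2 of the 7 genes, EXPA2 and EXPA4, and was lower in 0. Over all tested loci 15.8% were called, 8.37% higher and 7.47% lower in raf-b2/3. EXPA2 averaged 35.5 ± 5.78 FPKM in raf-b2/3 mannitol and 20.8 ± 1.18 in WT mannitol (SD, n = 3 each), a ratio of 1.71 and a log2 difference of 0.73 (SE 0.09, limma adjusted p = 2.9e-04). EXPA4 averaged 34.9 ± 5.95 FPKM in raf-b2/3 mannitol and 18.9 ± 2.82 in WT mannitol (SD, n = 3 each), a ratio of 1.85 and a log2 difference of 0.85 (SE 0.12, limma adjusted p = 6.8e-04). Each was higher in 3 of 3 raf-b2/3 libraries than in any WT library. Library raf-b2/3 mannitol 2 was the highest of its group for 5 of the 7 genes; without it the log2 difference of EXPA2 was 0.61 and that of EXPA4 0.74.

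The other 5 genes did not pass the test between genotypes under mannitol. EXPA5 averaged 35.3 ± 8.95 FPKM in raf-b2/3 and 30.0 ± 3.37 in WT (log2 difference 0.21, 95% interval -0.16 to 0.57, limma adjusted p = 0.46). For EXPA7, at 43.6 ± 7.08 and 42.0 ± 4.09 FPKM in raf-b2/3 and WT, the interval was -0.22 to 0.31. For EXPA10 it was -0.37 to 0.03 and for EXPA1 -0.3 to 0.43. EXPA8 was lower in each raf-b2/3 library than in any WT library with mannitol, but its log2 difference of -0.26 had an interval of -0.75 to 0.24 (limma adjusted p = 0.5). With EXPA2 and EXPA4 it made 3 of 7 genes whose groups did not overlap, against 33.8% of all tested loci.

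**Figure D4:**
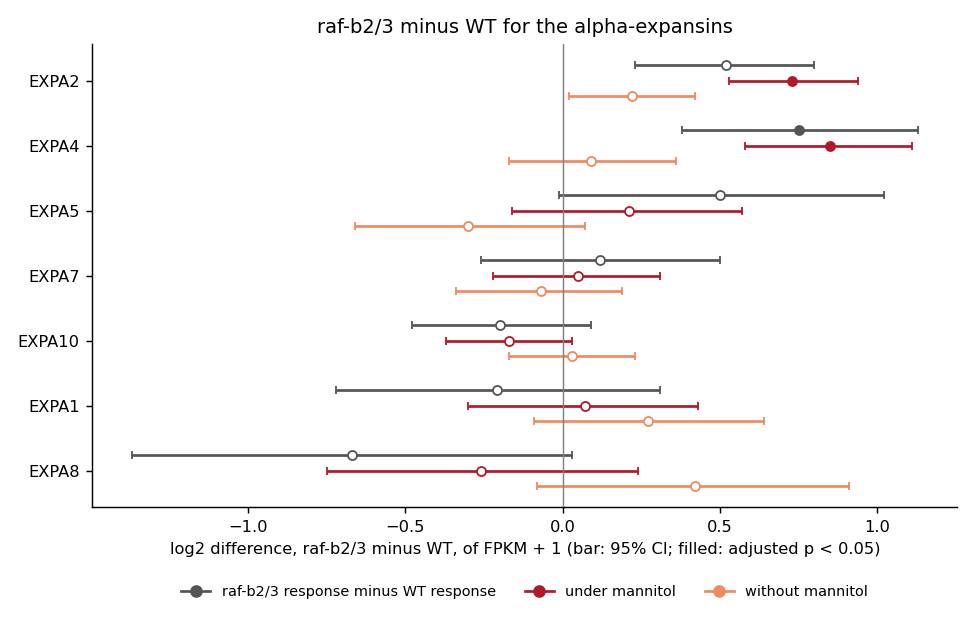
Log2 difference between genotypes of the 7 alpha-expansins (x axis, raf-b2/3 minus WT of log2(FPKM + 1)). For each gene the top point is the raf-b2/3 response minus the WT response, the middle one the difference with mannitol and the bottom one the difference without it, with 95% intervals from limma over 12 libraries; filled points have an adjusted p under 0.05, which here are EXPA2 and EXPA4 with mannitol, at 0.73 and 0.85, and the difference of the responses of EXPA4, at 0.75.

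Without mannitol, 0 of the 7 genes were called in limma, against 1.81% of all tested loci in either direction (1.22% higher and 0.59% lower in raf-b2/3); 1 of 7, EXPA2, had an unadjusted p under 0.05, and limma-voom called 0. EXPA2 averaged 59.0 ± 1.11 FPKM in raf-b2/3 control and 50.6 ± 2.64 in WT control (SD, n = 3 each). All 3 raf-b2/3 libraries lay above the WT libraries, with a log2 difference of 0.22 (95% interval 0.02 to 0.42, limma adjusted p = 0.3). EXPA2 was the only one of the 7 whose control groups did not overlap, against 21.3% of all tested loci. The intervals of the others, on the log2 scale, ran from -0.17 to 0.36 for EXPA4, from -0.66 to 0.07 for EXPA5, from -0.34 to 0.19 for EXPA7, from -0.17 to 0.23 for EXPA10, from -0.09 to 0.64 for EXPA1 and from -0.08 to 0.91 for EXPA8. Without WT control 2 the log2 difference of EXPA8 was 0.08 in place of 0.42, and that of EXPA1 0.07 in place of 0.27.

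Whether a gene responded to mannitol differently in the 2 genotypes was tested as the difference of the log2 responses, raf-b2/3 minus WT. EXPA4 passed, and it was 1 of 7, against 1.02% of all tested loci with a positive difference, 1.96% with a negative one and 2.98% in all. Its response was -0.52 in raf-b2/3 and -1.28 in WT, a difference of 0.75 (SE 0.17, 95% interval 0.38 to 1.13, limma adjusted p = 0.038). Over 18 alternatives the difference was 0.65 to 0.89, but the adjusted p was 0.011 to 0.095 and passed in 6; of the 12 libraries, leaving out raf-b2/3 mannitol 1 or WT mannitol 3 kept the call and leaving out any of the others ended it. EXPA2 gave a difference of 0.52 (SE 0.13, 95% interval 0.23 to 0.8, limma adjusted p = 0.059) and passed in 4 of 18 alternatives, namely both other scalings and without raf-b2/3 mannitol 1 or 3. For EXPA5 the difference was 0.5 (95% interval -0.01 to 1.02, limma adjusted p = 0.32), and for EXPA7 it was 0.12 (-0.26 to 0.5, limma adjusted p = 0.8). EXPA8 gave -0.67 (-1.37 to 0.03, limma adjusted p = 0.33), with -0.33 without WT control 2 and -1.52 by limma-voom, and it passed in 0 of the 18 alternatives. EXPA10 and EXPA1 gave -0.2 and -0.21, with intervals of -0.48 to 0.09 and -0.72 to 0.31.

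The organs of the seedling were followed by their markers. The 6 root markers, among them the silicon transporters LSI1 and LSI2, summed to 61.8 to 90.2 FPKM in raf-b2/3 mannitol and 558 to 666 in raf-b2/3 control, and to 77.7 to 86.8 in WT mannitol and 116 to 504 in WT control. With mannitol 5 of the 6 fell in each genotype, and over the alternatives 4 to 6 in WT. Of all tested loci 26.7% fell in raf-b2/3 and 25.5% in WT. The marker not called was IRT1, at 1.21 times its control mean in raf-b2/3 and 0.477 times in WT. The others ran from 0.0285 (LSI2) to 0.309 (RCC3) in raf-b2/3 and from 0.0299 (LSI2) to 0.436 (RCC3) in WT. The root markers did not fall by a common factor, so their sum does not measure the share of root RNA. The 5 green shoot markers, which include Rubisco activase (RCA) and light-harvesting proteins, summed to between 13600 and 16200 FPKM in raf-b2/3 mannitol and between 21400 and 24000 in raf-b2/3 control. In WT they summed to between 11600 and 14100 FPKM with mannitol and between 20900 and 23100 in the controls. Under mannitol the ranges of both genotypes overlapped for either marker list. With mannitol both sums were lower, like EXPA2 and EXPA4 and opposite to EXPA5 and EXPA7, and their part in these responses was not tested. The green shoot sum was lower through 2 of the 5 markers, RCA and RBCS2, which fell in both genotypes, while the light-harvesting genes LHCB1, LHCB1.1 and LHCA1 had 0.983, 1.19 and 1.28 times their control means in raf-b2/3 and 0.841, 1.08 and 1.06 times in WT. Between genotypes under mannitol 0 of 6 root markers were called in limma and 0 in limma-voom, with 1 at an unadjusted p under 0.05. Without WT control 2, which enters there only through the shared spread, 2 of the 6 were called: LSI1 was lower in raf-b2/3, at 15.9 ± 3.84 FPKM against 35.1 ± 1.3 in WT (SD, n = 3 each; log2 difference -1.12, limma adjusted p = 2.1e-04 without that library and 0.076 with it), and LSI2 was higher, at 3.13 ± 0.367 FPKM against 2.1 ± 0.611 in WT (0.43, limma adjusted p = 0.034 without it and 0.59 with it). Of the 5 green shoot markers 1, RCA, was higher in raf-b2/3, at 2170 FPKM on average against 1440 in WT (log2 difference 0.6, limma adjusted p = 0.019), a call that ended without raf-b2/3 mannitol 1 or 2 or WT mannitol 1 or 2, and with no filter on low values (adjusted p = 0.087); its part in the higher EXPA2 and EXPA4 was not tested.

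**Figure D5:**
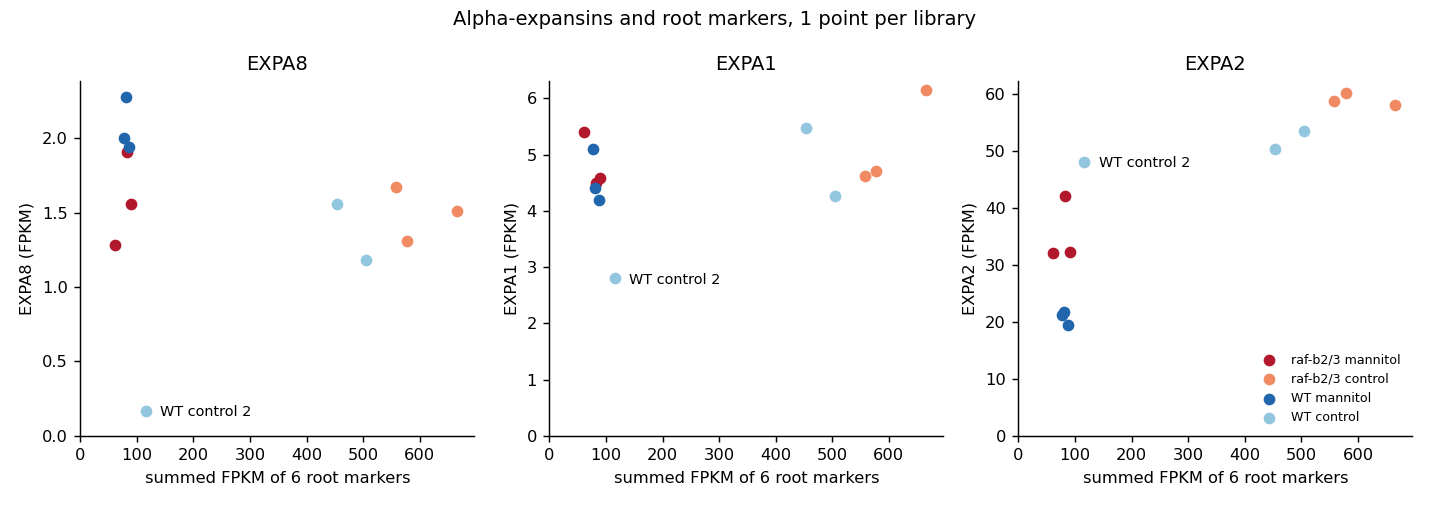
FPKM of EXPA8, EXPA1 and EXPA2 (y axes, 1 panel each) against the summed FPKM of 6 root markers (x axis) in the 12 libraries, 1 point per library, coloured by group. WT control 2, at 116 FPKM of root markers, lies left of the other control libraries of both genotypes and is the lowest point for EXPA8 and EXPA1, while its EXPA2 stands above that of all mannitol libraries.

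Among 47 expansins, cellulose synthases and organ markers, the genes most like each alpha-expansin were found by Pearson's r of log2(FPKM + 1) over the 12 libraries. These r describe libraries that share 4 groups, so they mostly restate the group means, and they carry no test. EXPA2 was most like the beta-expansin EXPB3 (r = 0.99) and RCA (0.96), and EXPA4 like EXPB3 and EXPA2 (0.96 each). EXPA5 was most like EXPA7 (0.98) and EXPA6 (0.97), and EXPA7 like EXPA6 and EXPA5 (0.98 each). EXPA8 was most like EXPB2 (0.83) and EXPA3 (0.82), and EXPA1 like EXPA3 (0.77) and EXPB2 (0.7). For all of these genes WT control 2 was the lowest of the 12 libraries. It had 0.17 FPKM of EXPA8, 2.8 of EXPA1, 8.41 of EXPB2 and 0.547 of EXPA3. The r of EXPA8 and EXPA1 thus lean on that library as well as on group means, and r without it was not computed. EXPA10 had no close match, with 0.53 for the cellulose synthases CESA7 and CESA5.

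Of 10 other alpha-expansins in the table, 7 passed the filter on low values. With mannitol 1 rose and 3 fell in raf-b2/3, and 2 rose and 2 fell in WT, with medians of -0.5 and 0.15 on the log2 scale. Beside this and the lists below, 35.6% of all tested loci rose and 26.7% fell in raf-b2/3. In WT 37.7% of all tested loci rose and 25.5% fell. EXPA6 (LOC_Os03g21820) had the largest change in both on the scale of log2(FPKM + 1), though by the ratio of means the low EXPA17, at 0.165 of its control mean in raf-b2/3 and 0.106 in WT, changed more. EXPA6 averaged 9.21 ± 1.89 FPKM in raf-b2/3 mannitol and 3.04 ± 0.477 in raf-b2/3 control, and 7.53 ± 0.518 in WT mannitol and 2.71 ± 0.264 in WT control (SD, n = 3 each). Its log2 change was 1.33 in raf-b2/3 (limma adjusted p = 4.9e-06) and 1.2 in WT (limma adjusted p = 8.5e-06). Over the 18 alternatives 1 rose and 2 to 5 fell in raf-b2/3, and 1 to 3 rose and 0 to 3 fell in WT. Leaving out WT control 2 gave 1 riser and 5 that fell in raf-b2/3, where that library enters only through the shared spread, and 1 riser and 3 that fell in WT. Between genotypes without mannitol 1, EXPA11, was higher in raf-b2/3, at 2.59 ± 0.4 FPKM against 1.01 ± 0.244 in WT (limma adjusted p = 0.018), a call lost when raf-b2/3 control 2 or 3 or WT control 2 was left out. Under mannitol 0 of 7 were called between genotypes in limma and 0 in limma-voom, with 2 at an unadjusted p under 0.05, and the same counts held for the difference of the responses.

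Beta-expansins are a sister family, and all 10 listed passed the filter. With mannitol 3 rose and 3 fell in raf-b2/3, and 2 rose and 3 fell in WT. The number that fell in raf-b2/3 was 5 without WT control 2 and 2 without raf-b2/3 mannitol 1, without raf-b2/3 control 2 or with a pseudocount of 0.1. EXPB3 (LOC_Os10g40720) fell like EXPA2: it averaged 50.7 ± 7.74 FPKM in raf-b2/3 mannitol and 89.4 ± 2.72 in raf-b2/3 control, and 30.1 ± 2.27 in WT mannitol and 83.6 ± 2.73 in WT control (SD, n = 3 each). Its log2 change was -0.82 in raf-b2/3 (limma adjusted p = 1.2e-05) and -1.44 in WT (limma adjusted p = 9.4e-08). Under mannitol 5 of 10 beta-expansins were higher in raf-b2/3 than in WT and 0 lower, with a median log2 difference of 0.5 beside -0.01 over all loci. Beside this and the lists below, 8.37% of all tested loci were higher and 7.47% lower. Over the alternatives 3 to 6 beta-expansins were higher, with 3 when raf-b2/3 mannitol 2 or WT mannitol 2 was left out. EXPB3 differed by 0.72 (limma adjusted p = 3.2e-04) and EXPB6 by 0.98 (limma adjusted p = 5.8e-04), with EXPB6 at 36.6 ± 8.56 FPKM in raf-b2/3 mannitol and 17.8 ± 2.11 in WT mannitol. Without mannitol 1 of 10, EXPB5, was higher in raf-b2/3, at 2.44 FPKM on average against 0.71 in WT (limma adjusted p = 0.014), a call that ended without raf-b2/3 control 2 or 3, and with a pseudocount of 0.1 (log2 difference 1.83, adjusted p = 0.06).

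Of 3 expansin-like genes, 3 rose in raf-b2/3 and 2 in WT with mannitol, and 1, EXLA1, was higher in raf-b2/3 under mannitol, at 42.3 FPKM on average against 29.0 in WT (log2 difference 0.53, limma adjusted p = 0.001). Of 9 cellulose synthases, which make the cellulose of cell walls, 1 rose and 2 fell in raf-b2/3 and 1 rose in WT. The median log2 changes were -0.18 in raf-b2/3 and -0.04 in WT. Over the alternatives 0 to 2 rose and 2 to 5 fell in raf-b2/3, and 1 to 3 rose and 0 to 2 fell in WT. Leaving out raf-b2/3 mannitol 1 gave 0 that rose and 4 that fell in raf-b2/3 and 3 that rose and 1 that fell in WT, leaving out raf-b2/3 control 2 gave 0 and 4 in raf-b2/3, and median-of-ratios scaling gave 0 and 5 in raf-b2/3. Under mannitol 3 of the 9 were lower in raf-b2/3 than in WT and 0 higher, with a median log2 difference of -0.2; the largest was that of CESA7, -0.43 (limma adjusted p = 0.0052). Over the alternatives 2 to 7 were lower, with 7 when raf-b2/3 mannitol 1 was left out.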

How the data were processed

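The authors deposited 1 table with FPKM values per library, made from paired reads of 150 bases from a strand-specific kit, per the labels' protocols, and with it, for each genotype, the authors' own p-values and log2 fold changes between mannitol and control. Tools named in the submitters' processing notes are Trimmomatic, edgeR and DESeq2, and the build is IRGSP-1.0; aligner, annotation and strand setting are not given in the sources read. No coordinates are given, since the reference gene table is of another assembly (ASM3414082v1). It was used only for names, and all 7 members matched it in name and chromosome. The beta-expansin EXPB12, the root markers LSI1, LSI2 and RCC3 and all 5 green shoot markers had no such name in it. Their names rest on the listed loci alone.

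From the FPKM, whole fragments were recovered for 29358 of 29358 loci (tolerance 0.01 of a fragment), with library totals of 37534836 to 39792489 (median 38767828); the members rested on 7 to 3205 fragments per library. The smallest whole numbers that fit all libraries were taken, so a locus whose counts share a divisor can come back too low. A locus with no signal in any library counts as recovered. Loci were tested if 3 or more libraries reached an FPKM of 1. The model was limma-trend (R 4.3.3, limma 3.58.1) on log2(FPKM + 1), with 12.1 degrees of freedom. Tables and figures were made in Python 3.11.15. The fit was checked on simulated data. The alternatives were a pseudocount of 0.1, no filter, median-of-ratios and quantile scaling, the replicate number as a block, limma-voom on the fragments, and each of 12 libraries left out.

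The members, gene lists and tests were chosen with earlier results of these data known. All 7 members are named in every comparison. Of each other list, at most the 4 called genes with the largest change are named, plus the 2 genes most like each member and genes that limit a count, a ranking or a sum. A list of genes was described by counts and its median, with no test of the list.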

Additional observations from a re-analysis of the deposited data

Results flagged for a closer look

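One result stood out because the effect of mannitol differed between the genotypes by a test of that difference. EXPA4 fell by 0.52 in raf-b2/3 and by 1.28 in WT on the log2 scale, a difference of 0.75 (SE 0.17, limma adjusted p = 0.038; 0.011 to 0.095 over the alternatives). Its levels with mannitol were 28.4 to 40.0 FPKM in 3 of 3 raf-b2/3 libraries and 16.0 to 21.6 FPKM in 3 of 3 WT libraries. The genotype groups without mannitol, 47.1 to 52.8 FPKM in raf-b2/3 and 45.2 to 49.9 FPKM in WT, overlapped.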

How the results depend on the processing

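For the 7 genes, 594 of the log2 changes recomputed under 18 alternatives kept their direction and their side of the threshold, 18 turned in sign (all of changes that were not called), 12 lost a call (all EXPA4 in the difference of the responses) and 6 gained one. The 9 calls for mannitol within a genotype and the 2 between genotypes under mannitol held in all 18. In the difference of the responses the number of alpha-expansins called was 1, against 0 with no filter or with the replicate block, 2 with median-of-ratios or quantile scaling, and 0 to 2 with 1 library left out; loci called were 666, against 367 by limma-voom and 263 to 745 with 1 library left out. Loci called between genotypes numbered 175 to 425 without mannitol and 2048 to 3861 under mannitol with 1 library left out, against 404 and 3544 with all libraries. The median log2 change over all loci in the WT response was 0.09 as reported and -0.01 with quantile scaling, a shift of the size of the EXPA10 changes.

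Changes that turned in sign with scaling were EXPA10 in WT (-0.06 with median-of-ratios, -0.1 with quantile scaling), EXPA10 between genotypes without mannitol (-0.0015 and -0.01) and EXPA8 in raf-b2/3 (-0.01 with quantile scaling); the cause was not tested. With 1 library left out, the log2 changes that turned ran over these ranges: in raf-b2/3, EXPA1 from -0.14 to 0.04 and EXPA8 from -0.04 to 0.13; in WT, EXPA1 from -0.07 to 0.31 and EXPA10 from -0.02 to 0.13; between genotypes without mannitol, EXPA7 from -0.14 to 0.02 and EXPA10 from -0.03 to 0.1; under mannitol, EXPA1 from -0.0032 to 0.13 and EXPA7 from -0.06 to 0.17; in the difference of the responses, EXPA1 from -0.38 to 0.001.

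The groups share replicate numbers, and across loci same-numbered libraries deviated together with r of only -0.311 to 0.265. Such r over all loci cannot show if a smaller set of genes deviated together, so pairing by number was not settled. EXPA7 was highest in replicate 2 of every group (raf-b2/3 mannitol 50.0, raf-b2/3 control 24.2, WT mannitol 46.5, WT control 26.3 FPKM). EXPA5 was highest there as well, with a tie in WT mannitol. The other members had no replicate number that was highest throughout. With the replicate block the difference of the responses of EXPA4 stayed 0.75 with an adjusted p of 0.059 (limma), and the block changed no other call of the 7 genes. Depth limits EXPA8 most, with 7 fragments in WT control 2 and up to 93 in the others. With 3 libraries a group, an adjusted p that misses the threshold does not show equal levels.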

Other observations

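Among the beta-expansins, EXPB11 (LOC_Os02g44108) had the largest genotype difference under mannitol on the scale of log2(FPKM + 1) (by the ratio of means it was 3.37 for EXPB11 and 3.49 for the low EXPB5), and unlike the alpha-expansins it rose in raf-b2/3 without being called in WT. It had 65.7, 102 and 66.6 FPKM in raf-b2/3 mannitol and 26.3, 23.9 and 25.5 FPKM in raf-b2/3 control, against 21.1, 21.4 and 26.9 FPKM in WT mannitol and 26.5, 22.2 and 25.4 FPKM in WT control. The 3 raf-b2/3 mannitol libraries lay above all 9 others, and the remaining groups overlapped. The log2 change with mannitol in raf-b2/3 was 1.56 (SE 0.15, limma adjusted p = 3.0e-06), and the difference of the responses was 1.66 (SE 0.21, limma adjusted p = 0.0017). Of 10 beta-expansins 2 were called in that difference, both positive, against 1.02% of all tested loci with a positive difference and 2.98% in all. Over the 18 alternatives 1 to 3 were called. Beside EXPB11 the other was EXPB3 at 0.63 (limma adjusted p = 0.025). The call of EXPB3 ended when raf-b2/3 control 1 or 2, WT mannitol 1 or 2 or WT control 3 was left out.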
